A study of Mus musculus with 6 samples.

Results

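The translation initiation factor genes of MIN6 cells were compared after TDP-43 siRNA and after control siRNA. Members were the genes whose symbol starts with Eif and a number, without the Eif2ak kinases, Eif4ebp1, Eif4h and the Argonaute genes once called Eif2c. A probe set is a group of short probes on the array, which the annotation assigns to 1 gene or to several. Whether its probes also read other transcripts was not checked. Each gene was represented by its brightest probe set that names a single gene. By this rule 41 genes were members, of 18193 genes with such a probe set. A filter took away the dimmest 40% of probe sets, after which 39 members were left among 12619 genes tested.

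MIN6 is an insulin-producing line from a mouse insulinoma. On 3 arrays the cells had been electroporated with 100 pmol of TDP-43 siRNA, which targets the mRNA of Tardbp, and on 3 arrays with the same amount of a control siRNA. TDP-43 is a protein that binds RNA. All 6 arrays held total RNA of MIN6 cells, and the labels give neither the siRNA sequences nor the time to harvest. Effects of losing TDP-43 and effects of the siRNA on other targets cannot be told apart. Nothing in the labels says that replicates came from separate cultures, so p-values measure the spread between these samples, which may be technical.

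Initiation factors bring the first tRNA and the small ribosomal subunit to an mRNA. eIF2 carries the initiator tRNA, and eIF2B reloads eIF2 with GTP, the step that stress kinases block. eIF4E binds the mRNA cap, the helicase eIF4A opens the leader with the help of eIF4B, and the scaffold eIF4G joins them to the many-subunit factor eIF3 on the ribosome. eIF1, eIF1A and eIF5 govern the choice of the start codon, and eIF5B joins the large subunit. In beta cells this machinery translates the large amounts of insulin mRNA.

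Each array gave signals for 45101 probe sets, with median signals from 72.3 to 79.97 and pairwise correlations from 0.985 to 0.991 over the genes tested. The number of arrays limits the precision. Tardbp read 2257, 2249 and 1836 after TDP-43 siRNA, against 3748, 3940 and 3699 after control siRNA, a log2 difference of -0.85 (SE 0.08, limma adjusted p = 0.00187). Of 9 beta cell markers 7 passed the filter and 0 passed the test. Their summed signal ran from 72820 to 79394 in TDP-43 siRNA arrays and from 73214 to 76598 in control arrays. Slc30a8 was the 1 of these 7 whose groups did not overlap, beside 18.3% of all genes. It read 8537, 9368 and 9340 after TDP-43 siRNA, against 7591, 7224 and 8152 after control siRNA. Its log2 difference was 0.25 (limma adjusted p = 0.119). Of 25 markers of other cell types 11 passed the filter and 0 passed the test. The delta cell hormone gene Sst, at signals of 97.3, 43.2 and 46.7 after TDP-43 siRNA against 9.92, 42.1 and 23.3 after control siRNA, did not overlap, with a log2 difference of 1.03 (limma adjusted p = 0.320). The fibroblast collagen gene Col1a2, at 68.4, 41.5 and 58.6 after TDP-43 siRNA against 71.2, 92.6 and 117.8 after control siRNA, did not overlap either, at -0.63 (limma adjusted p = 0.312). Both are dim, and their part in the initiation factor values was not tested. The summed signal of the alpha cell markers ran from 8509 to 9411 in TDP-43 siRNA arrays and from 8074 to 11370 in control arrays. Control replicate 3 stood apart from the other control arrays in glycolysis genes. Each array's mean over 13 of them, as log2 distance from the 6-array mean, was 0.21, 0.23 and 0.23 after TDP-43 siRNA, against -0.49, -0.43 and 0.25 in control replicates 1, 2 and 3. Without that array 25 of 39 initiation factor values moved by over 1.5 times, 8 of them with a turn of sign. Some of these moves are given beside the members concerned.

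No initiation factor gene passed the threshold. Of 39 tested, 0 rose and 0 fell at a limma adjusted p of 0.05, where 0.745% of all genes passed, 0.166% higher and 0.578% lower. In such bulk samples fewer cells of a type and less RNA per cell cannot be told apart. At an unadjusted p under 0.05 there were 3 members, Eif4a1, Eif5a2 and Eif1ad, beside 12.6% of all genes. The groups did not overlap for 9 of 39 members, 3 higher and 6 lower after TDP-43 siRNA, a share of 23.1% beside 18.3% of all genes. By direction that background was 9.98% of all genes higher and 8.32% lower. Differences were small in size. They ran from -0.24 for Eif1ad to 0.22 for Eif4ebp2, with 22 members above 0 and 17 below and a median of 0.01, beside a median of 0.02 over all genes tested. Both ends depend on control replicate 3: without it the range was -0.31 for Eif1ad to 0.32 for Eif4b, with Eif4ebp2 at 0.12 and a median of 0.01.

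The intervals were narrow for most members. For 38 of 39 the 95% confidence interval of the log2 difference lay within 0.5 of 0 on both sides, which held for 70.3% of all genes tested. The exception was Eif4ebp2, whose interval reached 0.51. Members were bright on these arrays, with a median signal of 3670 beside 599 over all genes tested, and their median standard error was 0.07 beside 0.10. The median absolute log2 difference was 0.05 for the initiation factors and 0.03 for 42 cytosolic ribosomal protein genes, whose median signal was 13923, beside 0.10 over all genes tested. Whether brightness accounts for the smaller differences was not tested.

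**Figure D1:**
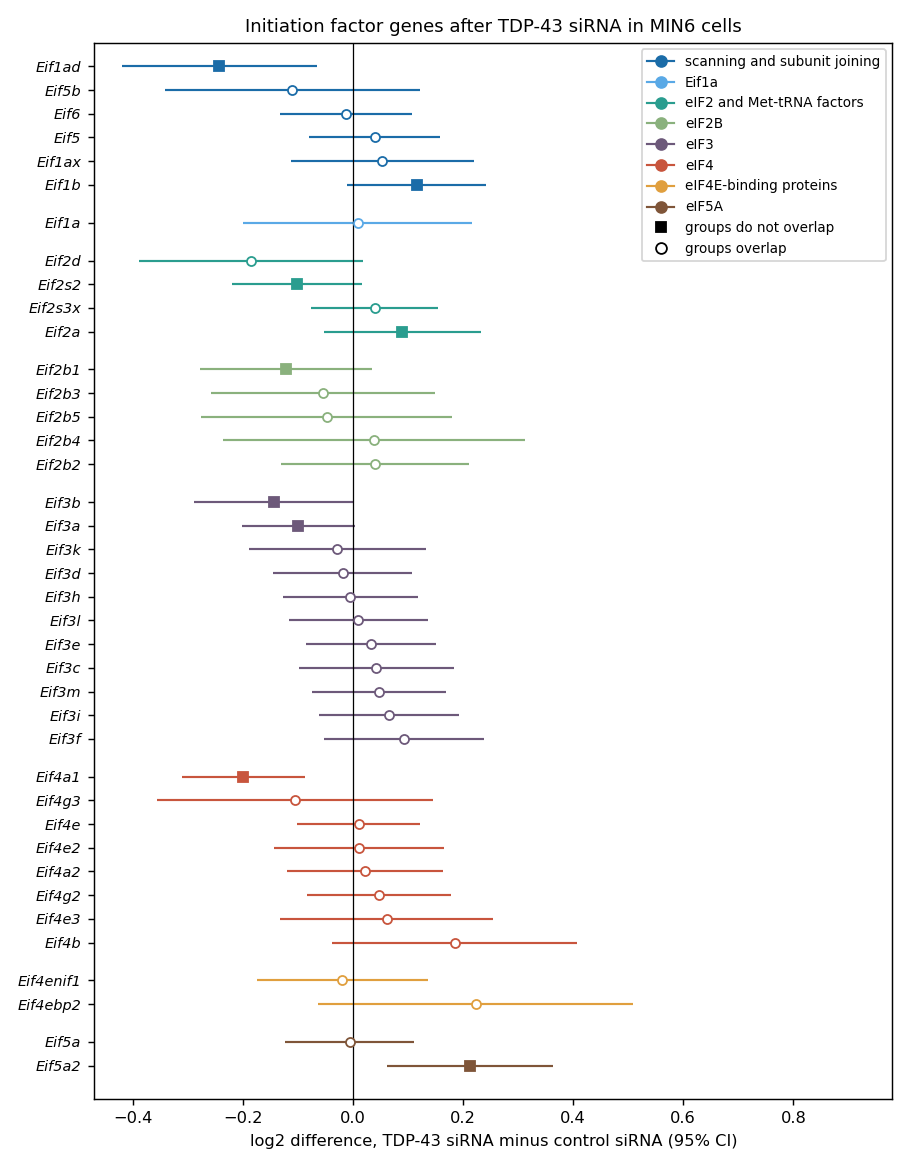
Log2 difference of each of the 39 initiation factor genes tested (x axis, TDP-43 siRNA minus control siRNA, point with 95% confidence interval, 3 arrays per group), listed by factor family and coloured by it. Filled squares mark the 9 genes whose groups did not overlap. All points lie between -0.24 and 0.22, and none passed the threshold.

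**Figure D2:**
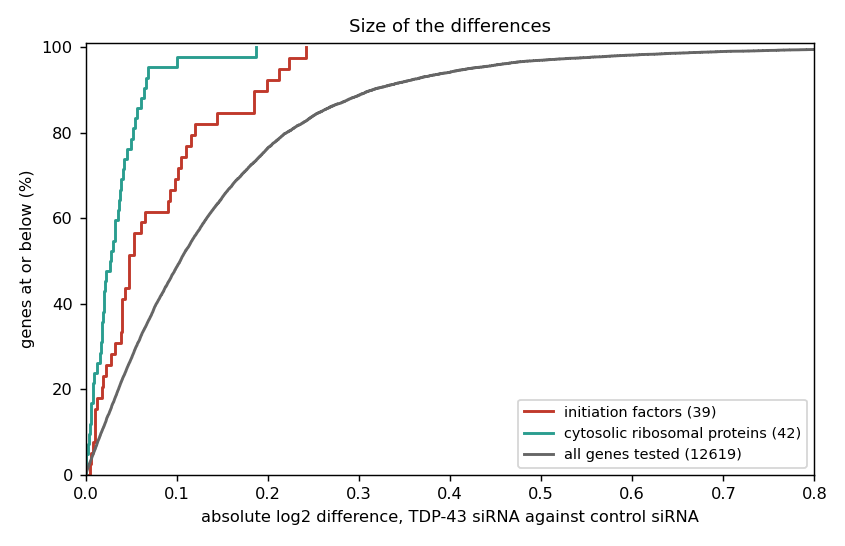
Share of genes (y axis, percent) whose absolute log2 difference between TDP-43 siRNA and control siRNA lay at or below the value on the x axis. At the median the line of the 39 initiation factors lies between those of the 42 ribosomal protein genes and of all 12619 genes tested, with medians of 0.05, 0.03 and 0.10.

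Among the eIF4 genes, which act at the mRNA cap, Eif4a1 lay lower after TDP-43 siRNA on all of its probe sets. Eif4a1 encodes the main DEAD-box helicase that unwinds mRNA leaders. Its brightest probe set, 1430980_a_at, read 9297, 10035 and 9239 after TDP-43 siRNA, against 11014, 11047 and 10721 after control siRNA. Every TDP-43 siRNA array lay below every control array. The means were 9524 ± 444 and 10927 ± 180 (SD, n = 3 each), a log2 difference of -0.20 (SE 0.05, 95% confidence interval -0.31 to -0.09, limma adjusted p = 0.120), a change of -12.9%. The other probe sets, 1427058_at and 1434985_a_at, were at -0.18 and -0.14, and the groups did not overlap on them. The 3 probe sets are assigned to 1 gene on the same arrays and are not separate replicates.

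The paralog Eif4a2, which encodes a second eIF4A helicase, read 12200, 12910 and 13209 after TDP-43 siRNA, against 11731, 12298 and 13765 after control siRNA. Its groups overlapped fully, with control arrays at both ends. Its log2 difference was 0.02 (SE 0.06), or 0.09 without control replicate 3. The change of Eif4a1 minus that of Eif4a2 was -0.22 (SE 0.09, exact permutation p = 0.1, two-sided, 0.2 adjusted over 4 paralog pairs). This difference in change ran from -0.30 to -0.17 with any 1 array left out. With 3 arrays against 3, no exact p can go below 0.1. Eif4a3, a helicase of the exon junction complex, has 1 single-gene probe set, which read from 3.79 to 5.78 over the 6 arrays and was not tested. A brighter probe set that names both Eif4a3 and the predicted gene Gm5576 read 3625, 4106 and 4028 after TDP-43 siRNA, against 3988, 4069 and 3926 after control siRNA, with overlapping groups and a log2 difference of -0.03.

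Eif4b, the cofactor that stimulates eIF4A, split the control arrays. Its brightest probe set, 1426380_at, read 4154, 4292 and 4447 after TDP-43 siRNA, against 3373, 3529 and 4525 in control replicates 1, 2 and 3. Control replicate 3 lay above all TDP-43 siRNA arrays, and the other control arrays lay below them. The log2 difference was 0.19 (SE 0.10, limma adjusted p = 0.482). Without control replicate 3 it was 0.32 and passed (limma adjusted p = 0.0374), the 1 of 39 members that did so, where 1.12% of all genes rose. The dimmer probe sets, 1426378_at and 1426379_at, were at 0.25 and 0.28. On 1426378_at the arrays read 3306, 3353 and 3805 after TDP-43 siRNA, against 2563, 2610 and 3740 after control siRNA. The same control array stood with the TDP-43 siRNA arrays there. The lactate dehydrogenase gene Ldha, a glycolysis gene, read 4367, 4353 and 4547 after TDP-43 siRNA, against 1829, 1884 and 4780 after control siRNA. The part of whatever sets control replicate 3 apart in the Eif4b values was not tested.

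On their brightest probe sets the cap-binding proteins lay near 0. Eif4e, the cap-binding subunit, read 5506, 5744 and 5750 after TDP-43 siRNA, against 5668, 5652 and 5555 after control siRNA. The groups overlapped, and its log2 difference of 0.01 had a 95% confidence interval from -0.10 to 0.12. Eif4e2, which competes for the cap on some repressed mRNAs, was at 0.01 and Eif4e3, another family member, at 0.06. The dimmer probe sets of Eif4e2 differed in sign. They were at -0.23 on 1435803_a_at, 0.23 on 1455108_at, 0.36 on 1421986_at and -0.06 on 1435804_at. Only on 1455108_at did the groups not overlap, and none of these passed. The comparisons with Eif4e use the brightest probe sets. The change of Eif4e minus that of Eif4e2 was -0.00 (SE 0.04, exact permutation p = 1.0, two-sided), and against Eif4e3 it was -0.05 (SE 0.09, exact permutation p = 0.6, two-sided, 0.8 adjusted over 4 pairs). Among the scaffolds, Eif4g2, which lacks the eIF4E-binding part and drives cap-independent initiation, was at 0.05 (interval -0.08 to 0.18), and Eif4g3 was at -0.11 (interval -0.36 to 0.14), or -0.18 without control replicate 3. Of the proteins that bind eIF4E, Eif4ebp2, a repressor, was at 0.22 (SE 0.13, limma adjusted p = 0.512) with overlapping groups, 0.12 without control replicate 3 and from 0.12 to 0.34 with any 1 array left out. Eif4enif1, the transporter 4E-T, was at -0.02.

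In the eIF5A family Eif5a2 lay higher after TDP-43 siRNA, short of the threshold, and Eif5a lay near 0. eIF5A helps ribosomes through difficult peptide bonds and carries the modified lysine hypusine. Eif5a2, on 1434593_at, read 1454, 1402 and 1441 after TDP-43 siRNA, against 1285, 1189 and 1233 after control siRNA. All TDP-43 siRNA arrays lay above all control arrays. The means were 1433 ± 27 and 1235 ± 48 (SD, n = 3 each), a log2 difference of 0.21 (SE 0.07, 95% confidence interval 0.06 to 0.36, limma adjusted p = 0.215). Its dimmer probe set 1438256_at was at 0.18 with overlapping groups. Eif5a read 15697, 16376 and 17555 after TDP-43 siRNA, against 15998, 16669 and 17122 after control siRNA. Its groups overlapped, and the log2 difference was -0.01 with an interval from -0.12 to 0.11. The change of Eif5a minus that of Eif5a2 was -0.22 (SE 0.07, exact permutation p = 0.1, two-sided, 0.2 adjusted over 4 pairs).

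In the family listed under scanning, start codon choice and subunit joining, Eif1ad lay lowest. Eif1ad encodes a nuclear protein with an eIF1A-like domain, and whether it acts in these steps was not tested. Its brightest probe set, 1428542_at, read 1268, 1367 and 1295 after TDP-43 siRNA, against 1574, 1673 and 1417 after control siRNA, so the groups did not overlap. The log2 difference was -0.24 (SE 0.08, 95% confidence interval -0.42 to -0.07, limma adjusted p = 0.229). The second probe set, 1455341_at, read 557, 636 and 581 after TDP-43 siRNA, against 853, 814 and 1537 after control siRNA. Control replicate 3 was the highest array there by far, and the log2 difference was -0.78 (SE 0.20, limma adjusted p = 0.162 over probe sets).

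Promoter letters of the 3 members with an unadjusted p under 0.05 are shown to set these genes side by side, from RefSeq on GRCm38.p6. Each line runs from 200 bases before the annotated start to 20 bases after it, 5′ to 3′ on the gene's strand. The windows are chr11:69672404-69672623 on the minus strand for Eif4a1, chr3:28781077-28781296 on the plus strand for Eif5a2 and chr19:5366613-5366832 on the plus strand for Eif1ad. Capitals mark CACGTG, the E-box read by MYC-type factors, and CCGGAAG, an ETS core, or its reverse complement.
Eif4a1: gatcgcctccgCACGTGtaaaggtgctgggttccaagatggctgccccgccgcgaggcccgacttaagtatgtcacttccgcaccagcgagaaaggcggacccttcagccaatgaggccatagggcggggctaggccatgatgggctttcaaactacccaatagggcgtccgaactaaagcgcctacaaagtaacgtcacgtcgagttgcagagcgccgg
Eif5a2: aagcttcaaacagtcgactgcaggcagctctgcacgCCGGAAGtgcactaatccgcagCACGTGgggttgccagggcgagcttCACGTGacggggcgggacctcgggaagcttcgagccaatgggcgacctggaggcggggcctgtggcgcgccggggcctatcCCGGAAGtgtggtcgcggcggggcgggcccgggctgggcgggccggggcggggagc
Eif1ad: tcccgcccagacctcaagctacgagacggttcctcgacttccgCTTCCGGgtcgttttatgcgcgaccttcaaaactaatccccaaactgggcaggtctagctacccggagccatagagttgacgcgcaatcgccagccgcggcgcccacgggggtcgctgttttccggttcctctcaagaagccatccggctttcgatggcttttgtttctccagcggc

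In these stretches Eif4a1 held 1 E-box, Eif5a2 held 2 E-boxes and 2 ETS cores, and Eif1ad held 1 ETS core. Eif4a1 and Eif5a2, neither of which passed the threshold, thus both carry CACGTG there. Any part of the motif in their values was not tested. Of 41 members 33 matched the promoter table. Over the full windows, from 250 bases before to 50 after the start and on both strands, CACGTG was in 6 of 33 members and in 7.24% of all 27025 promoters. CCGGAAG was in 12 of 33 members, beside 9.12% of all promoters, and GGGCGG, the GC box, in 25 of 33, beside 35.9%. A match is a description of the letters, not of a factor's binding. The promoter table also holds genes that encode no protein. These 3 motifs were picked after seeing the shares of 17 that were searched, for their known factors and their higher shares in members, so the shares are no test. The 14 others were the E-box variant CACGCG, the CCAAT box, the TATA box TATAAA, the cyclic AMP element TGACGTCA and its short form TGACGT, the NRF1 palindrome and its short form GCATGCGC, the run TTTCCG, the pyrimidine runs CTTTCC, then CTTTTC, then CTCTTTC and last CTTTCT, the octamer ATTTGCAT and the run ACTACA. Of those 14, 7 had a higher share in members than in all promoters and 7 a lower one. TTTCCG, which shares letters with CCGGAAG, was in 11 of 33 members beside 8.99% of all promoters, and CCAAT in 10 of 33 beside 37.9%.

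Eif1ax, which encodes the eIF1A that scans with the ribosome, gave different values by probe set. Its brightest probe set, 1419736_a_at, read 4337, 4069 and 3893 after TDP-43 siRNA, against 4146, 4148 and 3571 after control siRNA. The groups overlapped, with a log2 difference of 0.05 (SE 0.07), or -0.02 without control replicate 3. The dimmer probe set 1449576_at read 526, 428 and 530 after TDP-43 siRNA, against 782, 692 and 758 after control siRNA. All TDP-43 siRNA arrays were lower there, by a log2 difference of -0.58 (SE 0.11, limma adjusted p = 0.0496 over 27022 probe sets). It was the 1 of 98 initiation factor probe sets that passed, where 0.585% of all probe sets did and 0.455% were lower. It passed in 5 of 14 alternatives and in 0 of the 6 fits without 1 array, where the limma adjusted p ran from 0.0708 to 0.226. The dimmest, 1437071_at, read 252, 230 and 226 after TDP-43 siRNA, against 302, 303 and 312 after control siRNA. It too did not overlap, with a log2 difference of -0.36 (SE 0.11) and a limma adjusted p of 0.216 over probe sets. The change of 1449576_at minus that of the brightest probe set was -0.64 (SE 0.14) and did not pass (limma adjusted p = 0.322 over 10814 pairs of probe sets of one gene). The positions of the probe sets along the transcript were not used here.

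**Figure D3:**
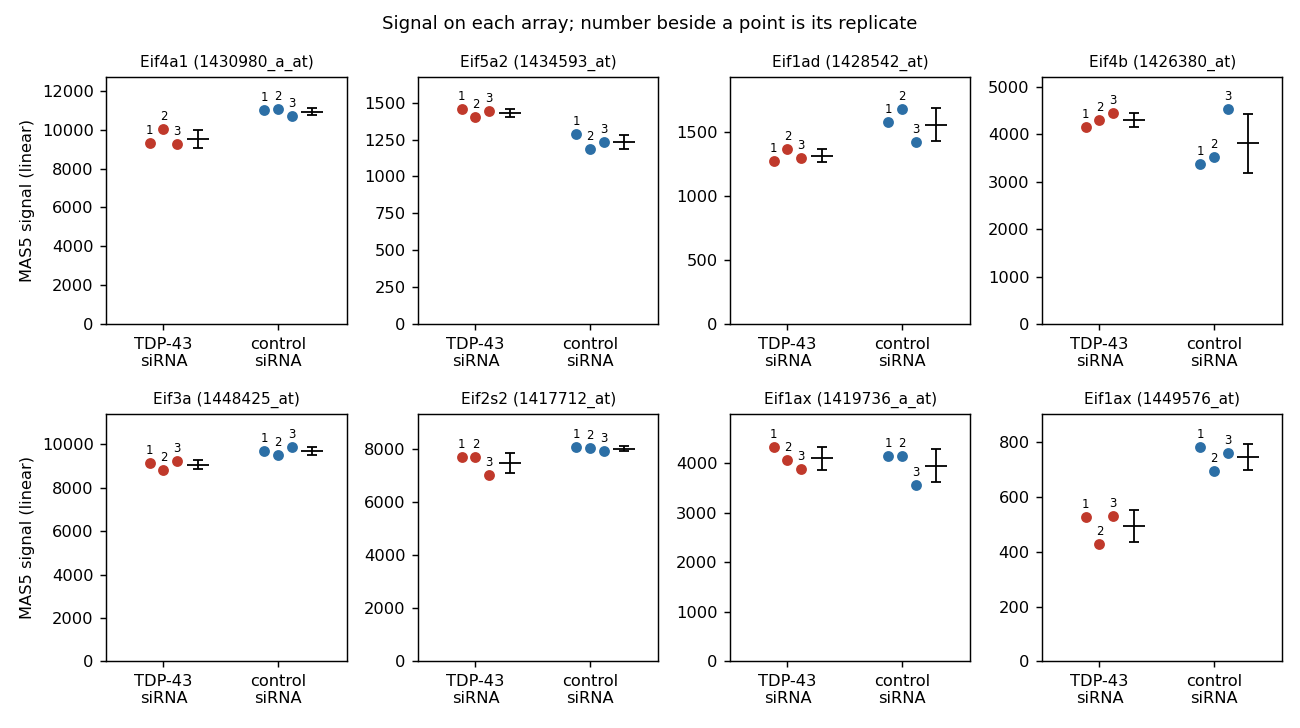
MAS5 signal (y axis, linear, from 0) on each array for 8 probe sets of 7 initiation factor genes, TDP-43 siRNA in red left of control siRNA in blue, with the replicate number beside each point and the mean ± SD (n = 3) beside the group. The groups do not overlap for Eif4a1, Eif5a2, Eif1ad, Eif3a, Eif2s2 and the dimmer Eif1ax probe set, and control replicate 3 of Eif4b lies above all TDP-43 siRNA arrays.

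The other members of this family stayed closer to 0. Eif1b, a close relative of the start codon factor eIF1, read 3804, 3811 and 3835 after TDP-43 siRNA, against 3579, 3352 and 3639 after control siRNA. The groups did not overlap, and the log2 difference was 0.12 (SE 0.06, limma adjusted p = 0.432). Eif5, the GTPase activator of eIF2, was at 0.04, Eif5b, the subunit-joining GTPase, at -0.11 (-0.17 without control replicate 3), and Eif6, which keeps free large subunits apart from small ones, at -0.01. Eif1a, a gene closely related to Eif1ax, was at 0.01 with an interval from -0.20 to 0.22, and at -0.09 without control replicate 3. Its sign turned in 5 of 18 alternatives, some of which cannot change the value, so it has no settled direction.

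On their brightest probe sets the eIF2 subunit genes Eif2s2 and Eif2s3x differed little. The subunit gene Eif2s1 is not analysed here. Eif2s2, the beta subunit, read 7667, 7682 and 7025 after TDP-43 siRNA, against 8072, 8017 and 7894 after control siRNA. The groups did not overlap, and the log2 difference was -0.10 (SE 0.05, limma adjusted p = 0.467). Its dimmer probe set 1448819_at read 920, 880 and 850 after TDP-43 siRNA, against 1104, 1133 and 1163 after control siRNA, again without overlap, a log2 difference of -0.36 (SE 0.07) with a limma adjusted p of 0.0819 over probe sets. The 4 other probe sets of Eif2s2 lay between -0.15 and -0.04 with overlapping groups. Eif2s3x, the gamma subunit, was at 0.04 with an interval from -0.08 to 0.16. Eif2s3y, its copy on the Y chromosome, had a mean signal of 2.8 after TDP-43 siRNA and 7.7 after control siRNA and was not tested.

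Of the factors that bring the initiator tRNA by other routes, Eif2a read 1455, 1410 and 1461 after TDP-43 siRNA, against 1356, 1360 and 1345 after control siRNA. Its groups did not overlap at a log2 difference of 0.09 (SE 0.06, limma adjusted p = 0.613). Eif2d was at -0.18 (SE 0.09, limma adjusted p = 0.439) with overlapping groups, and at -0.28 without control replicate 3 (limma adjusted p = 0.111).

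The 5 eIF2B genes, the exchange factor on which the integrated stress response acts, ranged from -0.12 for Eif2b1 to 0.04 for Eif2b2, with a median of -0.05. Their 95% confidence intervals lay between -0.28 and 0.31. Eif2b1, the alpha subunit, read 1061, 984 and 1000 after TDP-43 siRNA, against 1117, 1092 and 1103 after control siRNA (SE 0.07, limma adjusted p = 0.515). On the brightest probe sets it was the 1 gene of the 5 whose groups did not overlap, beside 18.3% of all genes. The groups also lay apart, lower after TDP-43 siRNA, on dimmer probe sets of Eif2b2 (1437428_x_at, -0.11) and Eif2b5 (1445908_at, -0.24). Neither of these passed. Eif2b3, part of the catalytic core, was at -0.05, Eif2b5, the catalytic subunit, at -0.05, and Eif2b4, a regulatory subunit, at 0.04. Without control replicate 3 these were at -0.13, -0.09 and -0.11, and Eif2b2 was at 0.09. With any 1 array left out Eif2b4 ran from -0.11 to 0.14, Eif2b2 from -0.02 to 0.09 and Eif2b5 from -0.14 to 0.07. Eif2b4, Eif2b2 and Eif2b5 thus have no settled direction.

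The 11 eIF3 subunit genes measured lay between -0.14 and 0.09, with 6 above 0 and 5 below and all confidence intervals between -0.29 and 0.24. Eif3a, the largest scaffold subunit, read 9134, 8825 and 9239 after TDP-43 siRNA, against 9714, 9519 and 9892 after control siRNA. The groups did not overlap at a log2 difference of -0.10 (SE 0.05, limma adjusted p = 0.416). On its 3 dimmer probe sets, 1416659_at, 1416660_at and 1416661_at, the groups overlapped, at 0.00, -0.02 and -0.03. Eif3b, the scaffold subunit that pairs with Eif3a, read 2050, 2054 and 2189 after TDP-43 siRNA, against 2426, 2317 and 2216 after control siRNA. Its groups did not overlap either, at -0.14 (SE 0.07, limma adjusted p = 0.400). The other core subunit of the scaffold, Eif3c, was at 0.04.

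Of the remaining eIF3 subunits, Eif3f was highest at 0.09 (SE 0.07, limma adjusted p = 0.611), and at 0.16 without control replicate 3 (limma adjusted p = 0.187). It read 6692, 7102 and 7112 after TDP-43 siRNA, against 6135, 6348 and 7149 after control siRNA, with control replicate 3 above every other array. Eif3i was at 0.07, Eif3m at 0.05, Eif3e at 0.03, Eif3l at 0.01, Eif3h at -0.00, Eif3d, a subunit that can bind some caps itself, at -0.02, and Eif3k at -0.03. The mean of the 11 genes on each array, as log2 distance from the 6-array mean, was -0.02, -0.01 and 0.03 after TDP-43 siRNA, against -0.02, -0.02 and 0.05 after control siRNA. The eIF3 genes as a group thus differed less between the treatments than among arrays of 1 treatment. Eif3j1 and Eif3j2 share 3 probe sets, which were at -0.02, 0.08 and 0.04 with overlapping groups, and Eif4ebp3 shares 1 with Ankhd1, at -0.06. Eif1, Eif2s1, Eif3g, Eif4e1b and Eif4g1 are not analysed here.

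Probe sets of one gene could be compared for 28 members. In 15 of them all probe sets past the filter had the same sign, and in 13 they did not. Of 59 pairs of a brightest and another probe set, 0 differed past the threshold, as in 0.00% of all 10814 pairs (limma), and 5 of 59 did at an unadjusted p under 0.05, beside 7.19% of all pairs. Those were 2 pairs of Eif1ax and 1 each of Eif5b, Eif2s2 and Eif4ebp2. For Eif5b the dimmest probe set, 1435592_at, was at 0.20 with groups that did not overlap, against -0.11 on the brightest. Taken singly, 22 of 98 probe sets had groups that did not overlap, beside 17.2% of all probe sets.

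**Figure D4:**
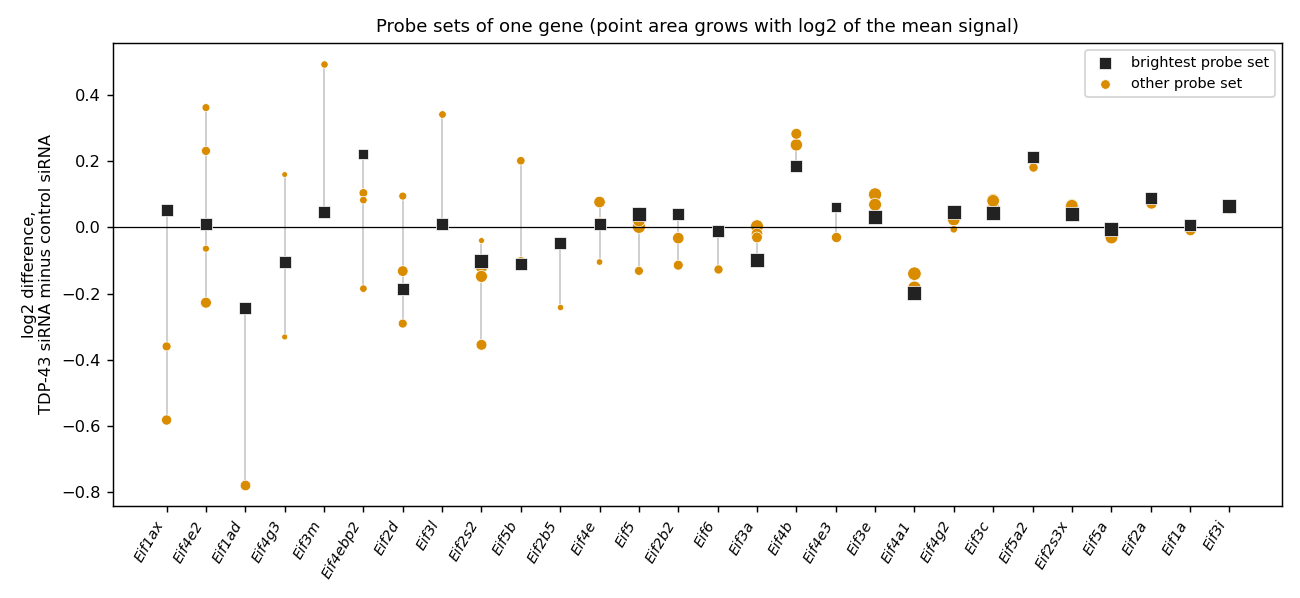
Log2 difference (y axis, TDP-43 siRNA minus control siRNA) of every probe set past the filter for the 28 initiation factor genes with more than 1, ordered by the distance between their extremes. Black squares are the brightest probe set and orange points the others, with larger points for brighter probe sets. The Eif1ax points run from -0.58 to 0.05, while the 3 of Eif4a1 lie between -0.20 and -0.14.

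Regulators of initiation outside the rule were also short of the threshold. Of 29 measured, 0 passed by limma, beside 0.745% of all genes, and 6 had an unadjusted p under 0.05, beside 12.6%. Without control replicate 3, 2 of the 29 rose, Eif4ebp1 and Mknk1, where 1.12% of all genes did. The smallest p was that of Eif4ebp1, the repressor that mTOR keeps off eIF4E, which read 3413, 3357 and 3508 after TDP-43 siRNA, against 2783, 2577 and 2886 after control siRNA. Its groups did not overlap at a log2 difference of 0.32 (SE 0.06, limma adjusted p = 0.0582), and without control replicate 3 it was 0.35 (limma adjusted p = 0.0279). Pabpc4, a poly(A)-binding protein, was at 0.20 (SE 0.06, limma adjusted p = 0.180), and Mknk1, a kinase of eIF4E, at 0.40 (SE 0.13, limma adjusted p = 0.227) with overlapping groups, or 0.54 without control replicate 3 (limma adjusted p = 0.0439). The eIF2 kinases lay at 0.06 for Eif2ak1, -0.16 for Eif2ak2, 0.02 for Eif2ak3 and 0.04 for Eif2ak4.

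Of 17 elongation and termination factors 0 passed, with 2 at an unadjusted p under 0.05, no larger a share than the 12.6% of all genes. These were Gspt1, the release factor eRF3a, at -0.31 (SE 0.08, limma adjusted p = 0.140), and its paralog Gspt2, at -0.26 (SE 0.09, limma adjusted p = 0.277), both without overlap of the groups. Tufm, a mitochondrial elongation factor, was at -0.17 (limma adjusted p = 0.408). Of 42 cytosolic ribosomal protein genes 0 passed, with 1 at an unadjusted p under 0.05, Rpl37 at 0.19, and their median was 0.01. Of 18 genes of the ATF4 response, which is switched on when eIF2 is phosphorylated, 1 rose, Cth, an enzyme of cysteine synthesis, at 0.92 (SE 0.14, limma adjusted p = 0.0209), and 17 did not pass, with 9 of the 18 at an unadjusted p under 0.05. Over all genes 0.166% rose and 12.6% had such a p. The list's median was 0.20, with 17 of 18 above 0, beside a median of 0.02 and 55.0% above 0 over all genes. Without control replicate 3 the median was 0.23, 16 of 18 lay above 0 and 3 rose, Cth, Ddit3 and Trib3. Over all genes in that fit 1.12% rose, and 6872 of 12619 lay above 0 with a median of 0.02. Atf4 itself was at 0.25 (limma adjusted p = 0.189) with overlapping groups.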

How the data were processed

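The deposited values are linear signal intensity for 45101 probe sets on 6 GeneChip arrays, which the authors made with MAS5, per the submitters' processing notes. The sources used here give no version of it. The mean without the highest and lowest 2% was 500.003 on every array, and the lowest signal was 1. Depth has no meaning here, and 3 arrays per group limit the precision.

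The platform annotation named 34945 probe sets with 1 gene and 932 with several, and symbols were updated through Entrez numbers for 34741. The value 12 was added before log2. The 64 control probe sets and the lowest 40% by mean signal were left out, and 27022 remained. The group difference was fitted per gene by limma 3.58.1 with R 4.3.3 (eBayes with an intensity trend, two-sided, Benjamini-Hochberg adjustment over all genes, threshold 0.05). Differences are TDP-43 siRNA minus control siRNA on the log2(signal + 12) scale, which understates changes of dim genes. Single probe sets were fitted likewise over all probe sets past the filter, and differences between probe sets of one gene were fitted without the trend. Paralogs were compared by exact permutation with scipy 1.17.1. Figures used matplotlib 3.10.9. The fits were checked on simulated data.

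Every member may be named, with full statistics for up to 3 of each family with the smallest p. Of the other lists up to 3 with the smallest p, and genes past the threshold, are named. Ldha, Atf4, Ddit3, Trib3, Slc30a8, Sst, Col1a2 and the Eif2ak genes were named after their values were seen. Members and lists were chosen with earlier results of these data known. Alternatives were other pseudocounts (1 and 42), filters (none, 60%), scalings, variance models, array weights, the mean of probe sets, the replicate number as a block, the platform's own symbols, a threshold of 0.10 and arrays left out.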

Additional observations from a re-analysis of the deposited data

How the results depend on the processing

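With all 6 arrays 94 genes passed, 0 of them initiation factors. The count over all genes was 51 with no filter, 12 with no intensity trend, 161 with array weights, 61 with the mean of probe sets, 208 at a threshold of 0.10, 214 without both arrays numbered 3, and between 31 (without control replicate 1) and 253 (without control replicate 3) with 1 array left out. Without TDP-43 siRNA replicate 1, 2 or 3 it was 47, 44 or 56, and without control replicate 2 it was 44. The count of initiation factor genes was 0 under each of these except without control replicate 3, where it was 1 (Eif4b), so it ran from 0 to 1 with 1 array left out. It was also 1 with single probe sets (Eif1ax, added after seeing the data). With 3 arrays per group, whether the replicate numbers pair the arrays cannot be told. Same-numbered arrays had correlations of deviations of -0.12, -0.14 and 0.24, and 1 of 3 TDP-43 siRNA arrays correlated best with its own number. With the replicate number as a block 123 genes passed, 0 of them initiation factors. Of 702 values of single members under the alternatives 45 turned sign, all in 19 members whose own difference was at most 0.11 in size, and none of these passed. The other filters, the variance models and the replicate block leave a member's difference as it was, so their values among the 702 could not turn. The 59 probe set pairs gave 0 calls under each alternative run, and the exact test of 4 paralog pairs cannot pass at this number of arrays under any. For dim members, Eif4a3 and Eif2s3y, the signal allows no test here.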
